A study of Mus musculus with 6 samples.

Results

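Ribosome biogenesis and nucleolar genes were compared between wild type and Cebpb knockout keratinocytes after ultraviolet B (UVB) light. The set holds 38 genes, listed by symbol as nucleolar genes known to respond to the transcription factor MYC, out of 55416 genes in the count table. The list was drawn up with earlier results of these data known, so counts and medians over it are descriptions and not tests of the set. Each of the 38 symbols matched 1 row, and all 38 were among the 17659 genes tested. The fewest reads that any of them had in any library was 910, so no member entered or left through a low-count filter.

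The cells were primary keratinocytes from the epidermis of pups 1 to 2 days old, of the hybrid background C57BL/6J:129, either wild type or lacking C/EBPβ, the leucine zipper transcription factor encoded by Cebpb. Both genotypes were kept in serum-free medium with epidermal growth factor, pituitary extract and 0.05 mM calcium. On day 5 after plating they were irradiated with 10 mJ/cm2 at 312 nm, and RNA was collected after 8 h. There were 3 wild type libraries, numbered 1, 2 and 3, and 3 knockout libraries, numbered 4, 5 and 6, all irradiated, so every value below is a difference between genotypes after UVB and not a response to UVB. Whether libraries of the same genotype come from separate pups or cultures is not stated in the labels, and p-values therefore reflect only the spread among these libraries, which may be technical.

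Ribosomes are built in the nucleolus. RNA polymerase I transcribes the ribosomal DNA into a long precursor, small nucleolar ribonucleoproteins (snoRNPs) modify and help to cut it, and a succession of assembly factors folds it with ribosomal proteins into the small and the large subunit. Growing epithelial cells spend much of their transcription on this task, and MYC, which binds DNA as a dimer with MAX, is a well known activator of the genes involved.

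Library totals were 107757415 to 122797031 counts in wild type and 81256192 to 92987497 counts in knockout libraries, so depth also ran with genotype. Cebpb had 12036 to 18184 counts in the wild type libraries against 78 to 109 in the knockout libraries. The keratinocyte genes Krt5, Krt14, Krt15, Trp63, Itga6, Itgb4, Dsg3, Col17a1, Perp and Sfn were detected in every library and summed to 39682 to 43929 CPM (counts scaled to the same library total) in wild type and 26603 to 27913 CPM in knockout cells, with 9 of the 10 lower and Itgb4 higher. Of the 10 fibroblast markers, Col3a1, Lum and Twist2 averaged under 0.1 CPM. That list summed to 6.89 to 9.43 CPM in wild type and 19.0 to 22.7 CPM in knockout cells, with 1 gene higher (Postn) and 2 lower. The 10 immune markers summed to 5.72 to 7.88 and 5.03 to 6.15 CPM with Ptprc, Cd3e, Cd3g, Cd207 and Adgre1 under 0.1 CPM, and 2 were called higher and 2 lower. The 6 endothelial markers summed to 6.64 to 7.37 and 5.53 to 6.65 CPM, and the 5 Merkel cell markers to 1.01 to 1.51 and 2.55 to 2.68 CPM, with 0 higher and 1 lower in the former list and 1 of each in the latter. The summed level of the 8 melanocyte markers, at 663 to 729 and 645 to 737 CPM, overlapped between genotypes, while 6 of them were called lower and 0 higher. These sums use library totals, whereas the marker calls use the TMM scaling described below. With library totals 3 melanocyte markers were called lower and 0 higher. On that scale the fibroblast list had 2 higher and 1 lower, the immune list 2 and 1, and the endothelial list 0 and 0. The keratinocyte and Merkel cell lists kept their numbers. Y-linked transcripts (57.5 to 63.2 CPM in wild type, 0.108 to 0.172 CPM in knockout cells) and Xist (358 to 385 and 618 to 639 CPM) also ran with genotype. Their part in the results below was not tested. In bulk RNA, fewer cells of a type and less RNA per cell cannot be told apart.

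Nearly the whole set was lower in knockout cells. Counts were scaled by TMM, a trimmed mean of the log ratios between libraries, and tested by edgeR with p-values adjusted by Benjamini-Hochberg over all 17659 genes. Of the 38 members, 36 fell, 1 rose (Utp20) and 1 was not called (Tcof1). Of all genes tested, 23.7% were called lower and 24.8% higher. The median log2 fold change (knockout over wild type throughout) was -0.67 over the members and 0.01 over all genes tested, and the members' median corresponds to a level of 0.629 times that of wild type. The falls ran from -0.23 (Gar1) to -1.11 (Polr1b). They passed 0.5 log2 units in 26 members, where 12.2% of all genes fell by that much, and passed 1 log2 unit in 5 members (Polr1b, Rrp1b, Dkc1, Heatr1 and Nop16), where 5.94% of all genes did.

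The levels per library showed little overlap. In TMM-scaled CPM the 3 knockout libraries all lay below the 3 wild type libraries for 36 members, as for 27.6% of all genes tested, and all above them for Utp20, as for 28.7%. The groups thus did not overlap in 37 of the 38, against 56.4% of all genes. Summed over the 38 members, the level was 6012, 6825 and 7181 CPM in wild type libraries 1, 2 and 3 and 4448, 4422 and 4404 CPM in knockout libraries 4, 5 and 6. The means were 6673 ± 599.6 and 4424 ± 22 CPM (SD, n = 3 each), a difference of -33.7% in knockout cells. Ncl and Npm1 alone held 29.5% of this sum in wild type and 32.1% in knockout cells.

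**Figure D1:**
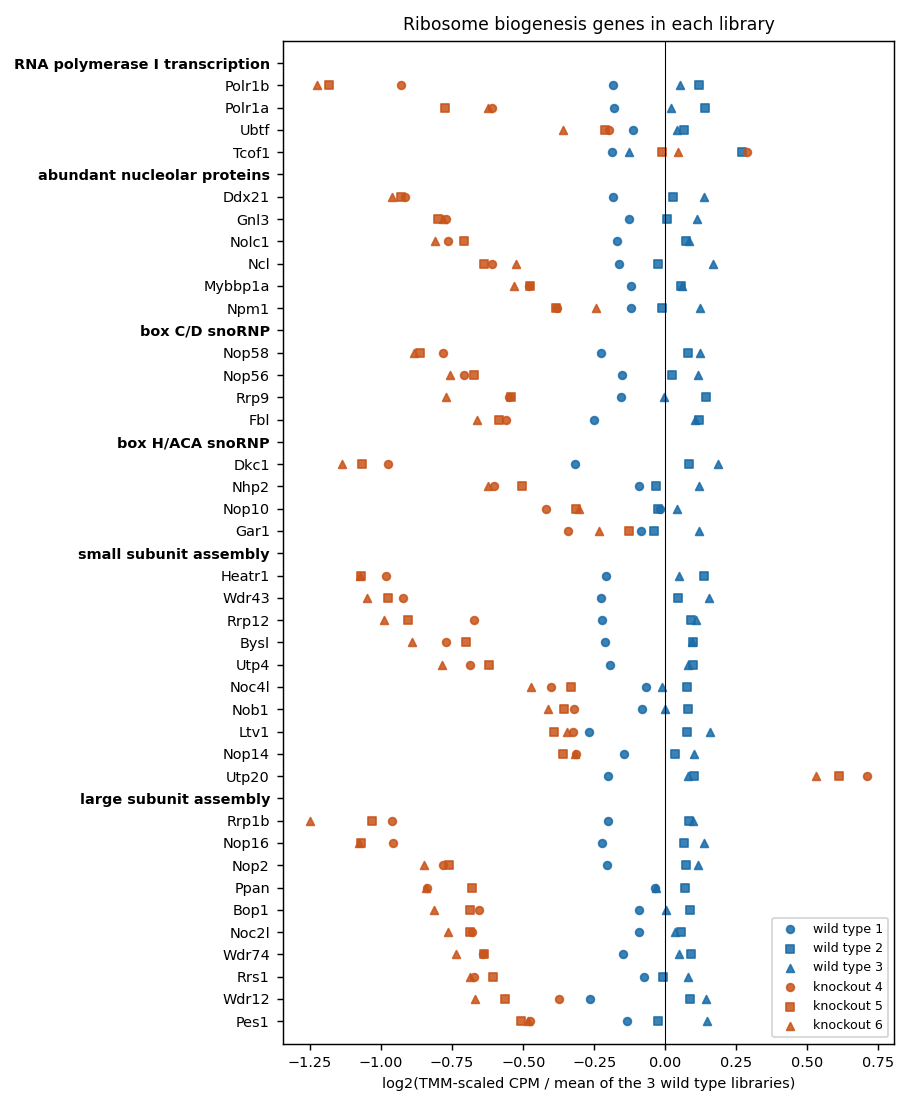
Level of each of the 38 members in every library, as log2 of TMM-scaled CPM over the mean of the 3 wild type libraries (horizontal axis), grouped by role. Blue symbols are wild type and orange symbols knockout libraries, and 36 members have all orange symbols to the left of all blue ones, with Utp20 to the right and Tcof1 mixed.

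The spread within a genotype was wider among the wild type libraries. The coefficient of variation over the 3 wild type libraries had a median of 10.5% over the members, from 2.58% for Nop10 to 18.0% for Tcof1. Over the knockout libraries the median was 4.41%, from 1.02% for Gnl3 to 11.7% for Rrp12. Library 1 was the lowest of the 3 wild type libraries for 37 of the 38 members, Nop10 being the exception. Even so, all knockout libraries stood below wild type library 1 in 36 members, and without that library the median log2 fold change was -0.75 with 36 members lower.

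The 2 scalings of the counts gave different sizes. TMM centres the bulk of genes near no change, while division by the library total counts every read alike. With library totals the median of all genes tested moved up by 0.20 log2 units, to 0.21, and the median of the members moved to -0.47 (0.721 times the wild type level). On this scale 29 members were called lower, 1 higher and 8 not called by edgeR with Benjamini-Hochberg adjustment, where 13.9% of all genes were lower and 36.7% higher. The groups did not overlap in 31 members, 30 of them lower and 1 higher. Of all 17659 genes tested, 2911 were lower and 7353 higher without overlap on this scale. As a share of all counts, the 38 members took 0.558%, 0.646% and 0.665% in wild type libraries 1, 2 and 3 and 0.485%, 0.471% and 0.466% in knockout libraries 4, 5 and 6, with no overlap. The log2 fold change was below 0 in 36 members under both scalings, and 36 lay below the median of all genes under each.

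Besides Tcof1, the members not called with library totals were Ubtf, Npm1, Gar1, Nop10, Nop14, Nob1 and Ltv1. For Ubtf the library-total CPM were 233, 270 and 259 in wild type and 258, 250 and 224 in knockout libraries, and for Gar1 34.0, 35.7 and 39.0 against 33.3, 37.9 and 34.9. These groups overlap. For Nob1 (43.6, 49.7 and 46.0 against 43.3, 41.4 and 39.5 CPM) and Nop10 (42.2, 42.9 and 43.9 against 37.6, 39.5 and 39.5 CPM) they did not, although the tests missed the threshold (edgeR adjusted p = 0.0861 and 0.101).

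**Figure D2:**
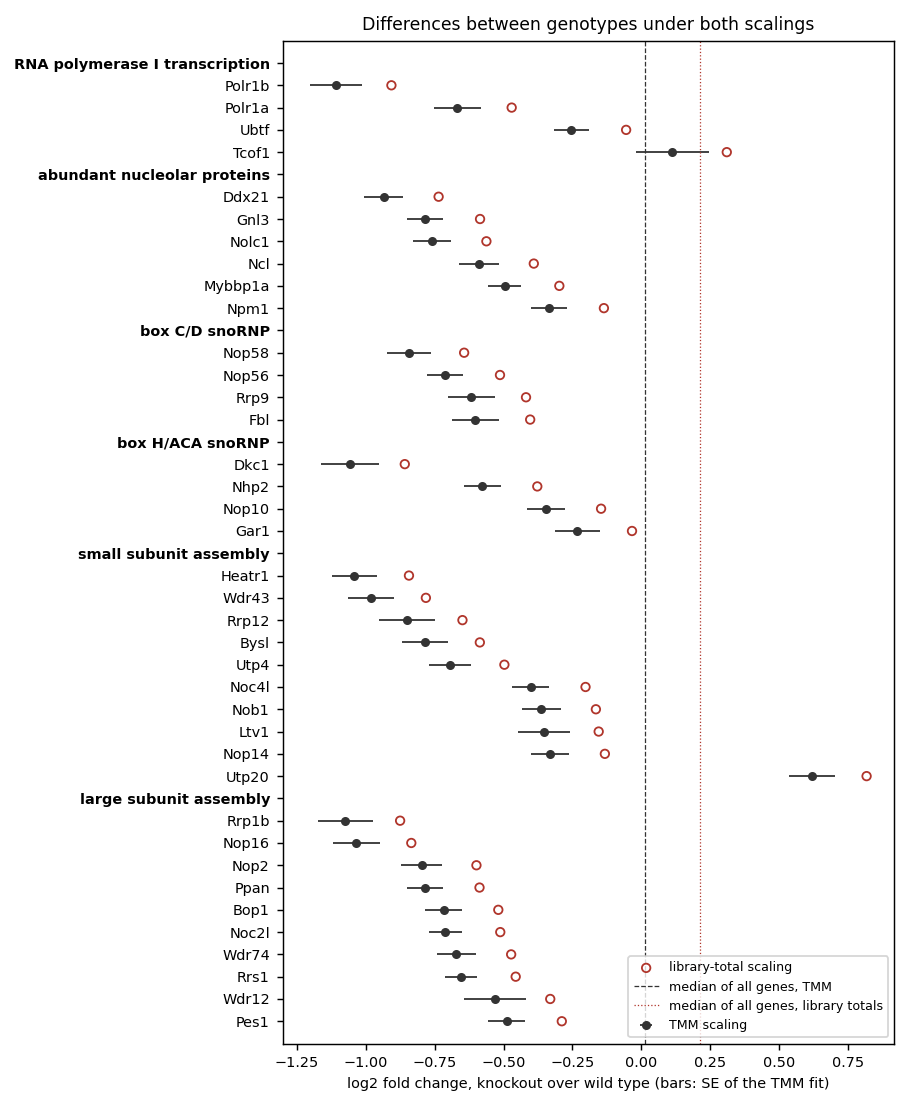
Log2 fold change of each member, knockout over wild type, with TMM (filled points, bars are the standard error) and with library totals (open circles). The dashed and dotted lines are the medians of all genes tested under each scaling, 0.01 and 0.21, and 36 members lie to the left of the line of their own scaling.

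MYC and MAX bind the E-box with the letters CACGTG, which reads the same on both strands. RefSeq promoters on GRCm38.p6, from 250 bases before to 50 bases after an annotated start, were at hand for 32 of the 38 members, and 7 of these (21.9%) held at least 1 such E-box. It was present in 11.3% of the 11421 tested genes and 8.09% of all 27025 genes with a promoter in that table, and in 17.1% of 117 other ribosome biogenesis genes. The 7 windows are shown because they place the motif in members that fell and in the member that rose, 5′ to 3′ on the strand of the gene, with the E-box in capitals. Those of Mybbp1a and Utp20 stop where the promoter sequence ends.
Mybbp1a: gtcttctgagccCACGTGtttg
Utp20: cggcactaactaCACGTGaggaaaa
Utp4: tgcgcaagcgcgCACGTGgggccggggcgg
Wdr43: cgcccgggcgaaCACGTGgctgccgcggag
Ltv1: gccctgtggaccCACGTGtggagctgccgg
Nop2: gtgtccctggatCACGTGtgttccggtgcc
Pes1: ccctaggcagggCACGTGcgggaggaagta

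On GRCm38.p6 the windows lie at chr11:72441355-72441376 on the plus strand for Mybbp1a, chr10:88826765-88826789 (minus) for Utp20, chr8:106893643-106893672 (plus) for Utp4 and chr17:71616220-71616249 (plus) for Wdr43. Those of Ltv1, Nop2 and Pes1 lie at chr10:13193092-13193121 (minus), chr6:125131811-125131840 (plus) and chr11:3963965-3963994 (plus). In Nop2 the motif begins 60 bases before the annotated start, and in the other 6 genes it begins after the start, at base 3 in Pes1, 16 in Utp4, 18 in Wdr43, 29 in Ltv1, 38 in Utp20 and 41 in Mybbp1a. Of these 7 genes, 6 fell and Utp20 rose. The median log2 fold change was -0.50 over the 7 and -0.71 over the 25 members whose promoter held no such E-box. A match describes these letters in this window only, and binding was not measured.

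Among genes of RNA polymerase I transcription, the deepest fall of the whole set was in Polr1b (ENSMUSG00000027395), which encodes the second largest subunit of the polymerase. Its level was 49.0, 60.5 and 57.8 CPM (TMM-scaled, as are all CPM below) in wild type and 29.3, 24.5 and 23.8 CPM in knockout libraries, so every knockout library was well below every wild type one. The log2 fold change was -1.11 ± 0.09 (SE, edgeR adjusted p = 7.94e-08). Polr1a, the gene of the largest subunit, went from 45.0, 56.0 and 51.6 to 33.3, 29.7 and 33.0 CPM and fell by 0.67. Ubtf encodes UBF, the factor that holds ribosomal DNA open for the polymerase, and was at 251, 285 and 280 CPM against 237, 235 and 212 CPM. Its groups are close but apart, and it fell by 0.25 ± 0.06 (SE, edgeR adjusted p = 0.00362).

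Tcof1, whose product treacle links the polymerase to early processing, was scarce and did not follow the rest. It stood at 9.02, 12.4 and 9.41 CPM in wild type and 12.5, 10.2 and 10.6 CPM in knockout libraries, which overlap. Its log2 fold change was 0.11 ± 0.13 (SE, edgeR adjusted p = 0.518), with an approximate 95% interval from -0.15 to 0.37. With library totals the log2 fold change was 0.31 (edgeR adjusted p = 0.077). Per kilobase of exon Tcof1 was at 1.95 CPM in wild type cells, level with Wdr12 at 1.96, which was called lower. In knockout cells these were at 2.11 and 1.36 CPM per kilobase.

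The genes of abundant nucleolar proteins all fell at the RNA level. Ncl (ENSMUSG00000026234) encodes nucleolin, an RNA-binding protein of early precursor processing, and was at 999, 1097 and 1257 CPM in wild type and 733, 718 and 778 CPM in knockout libraries. The log2 fold change was -0.59 ± 0.07 (SE, edgeR adjusted p = 4.95e-06). Npm1 encodes nucleophosmin, the chaperone of the outer nucleolus, and changed less, from 783, 846 and 927 to 655, 652 and 720 CPM (fell by 0.33). Per kilobase of exon these were the most abundant members, with Npm1 at 319.7 CPM per kilobase in wild type and 253.6 in knockout cells and Ncl at 109.7 and 72.9.

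Ddx21 showed the deepest fall of this group. It encodes a helicase that acts both at ribosomal DNA and on the precursor, and its 411, 475 and 513 CPM in wild type libraries stood against 247, 245 and 239 CPM in knockout libraries. That is a log2 fold change of -0.93 ± 0.07 (SE, edgeR adjusted p = 1.79e-08). Gnl3, which encodes the GTPase nucleostemin, was at 158, 174 and 187 CPM against 101, 99.3 and 100.5 CPM (fell by 0.78). Nolc1, the gene of a phosphoprotein that chaperones snoRNPs, fell by 0.76 (227 ± 21.9 to 134 ± 4.67 CPM, SD, n = 3 each), and Mybbp1a, whose product binds MYB and resides in the nucleolus, by 0.50 (504 ± 35.2 to 357 ± 7.5 CPM).

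Genes for proteins of the box C/D snoRNPs, which carry out 2′-O-methylation, fell in a narrow range of -0.60 to -0.84. Fbl, the gene of the methyltransferase fibrillarin, was at 73.2, 94.8 and 93.7 CPM in wild type and 59.2, 58.1 and 55.1 CPM in knockout libraries. The scaffold genes Nop56 and Nop58 went from 290, 328 and 349 to 197, 202 and 191 CPM and from 128, 158 and 163 to 87.0, 82.3 and 81.1 CPM. In each of the 3 genes wild type library 1 was the lowest of its group and still above every knockout library. Their log2 fold changes were -0.60, -0.71 and -0.84. Rrp9, whose product belongs to the U3 snoRNP that guides the early cuts, fell by 0.62 ± 0.09 (SE).

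The 4 core genes of the box H/ACA snoRNPs, which convert uridine to pseudouridine, fell by unequal amounts. Dkc1, the gene of the pseudouridine synthase dyskerin, went from 60.4, 79.7 and 85.5 CPM to 38.3, 35.9 and 34.2 CPM, a log2 fold change of -1.06 ± 0.10 (SE, edgeR adjusted p = 7.95e-07). Dkc1 lies on the X chromosome, and the difference in Xist and Y-linked transcripts given above runs with it. Its part was not tested. Nhp2 was at 103, 107 and 119 CPM against 72.1, 77.2 and 71.1 CPM (fell by 0.58), and Nop10 at 45.5, 45.3 and 47.4 CPM against 34.5, 37.0 and 37.4 CPM (fell by 0.34).

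Gar1 had the smallest fall that passed the test. Its levels of 36.6, 37.7 and 42.1 CPM in wild type and 30.6, 35.5 and 33.0 CPM in knockout libraries nearly touch, and its log2 fold change was -0.23 ± 0.08 (SE, edgeR adjusted p = 0.026). The call was lost without wild type replicate 3 (-0.18, edgeR adjusted p = 0.133), without knockout replicate 4 (-0.18, 0.128) and without knockout replicate 6 (-0.23, 0.0672).

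In the assembly of the small subunit, 9 of 10 members fell. Heatr1, an early component of the processome that forms on the precursor, went from 79.7, 101 and 95.2 CPM to 46.6, 43.8 and 43.7 CPM, a log2 fold change of -1.04 ± 0.08 (SE, edgeR adjusted p = 2.7e-08). Wdr43 and Utp4 belong to the same early module, and fell by 0.98 and 0.70. Wdr43 was at 88.8, 107 and 116 CPM against 54.8, 52.9 and 50.2 CPM. Rrp12, which takes part in export of the precursors, fell by 0.85 and Bysl, which joins late small subunit precursors, by 0.78.

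Other members of this group changed less. Noc4l (72.1 ± 3.58 to 54.6 ± 2.66 CPM), its partner gene Nop14 (105 ± 9.04 to 83.1 ± 1.49 CPM), the endonuclease gene Nob1 (49.7 ± 2.77 to 38.7 ± 1.24 CPM) and the export factor gene Ltv1 (38.5 ± 5.74 to 30.1 ± 0.713 CPM, SD, n = 3 each) fell by 0.40, 0.33, 0.36 and 0.35. NOB1 makes the last cut of the small subunit RNA in the cytoplasm. In Ltv1, wild type library 1 at 32.0 CPM was close to knockout library 4 at 30.7 CPM.

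Utp20 moved the other way. It encodes a very large processome component, and its levels were 39.9, 49.2 and 48.5 CPM in wild type and 74.9, 70.0 and 66.3 CPM in knockout libraries. Every knockout library was above every wild type one, with a log2 fold change of 0.62 ± 0.08 (SE, edgeR adjusted p = 1.21e-05), or 0.82 with library totals. Wild type library 1 was again the lowest of its group, as in the genes that fell.

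The 10 members of large subunit assembly all fell, under both scalings. PES1, BOP1 and WDR12 form the PeBoW complex, which is needed for processing of the large subunit RNA. Pes1 was at 199, 214 and 242 CPM against 157, 154 and 156 CPM (fell by 0.49) and Bop1 at 87.1, 98.8 and 93.1 CPM against 59.0, 57.7 and 52.8 CPM (fell by 0.72). Wdr12, the least abundant of the complex, went from 19.5, 24.9 and 25.9 CPM to 18.1, 15.9 and 14.7 CPM and fell by 0.53 ± 0.11 (SE, edgeR adjusted p = 0.00101). Its wild type library 1 lay just above knockout library 4, and with library totals these groups overlapped.

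Rrp1b had the deepest fall of the large subunit group, from 32.3, 39.4 and 39.8 CPM to 19.1, 18.2 and 15.6 CPM (log2 fold change -1.08 ± 0.10, SE, edgeR adjusted p = 2.13e-07). Nop16 fell nearly as far, from 80.2, 98.0 and 103 CPM to 48.3, 44.6 and 44.4 CPM (-1.03 ± 0.08, SE). Nop2, the gene of an RNA cytosine methyltransferase, fell by 0.80 (253 ± 29.5 to 145 ± 4.57 CPM, SD, n = 3 each). Ppan fell by 0.79, Noc2l by 0.71, Wdr74 by 0.67 and Rrs1, which brings the 5S ribonucleoprotein into the precursor, by 0.65.

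Summed by role in TMM-scaled CPM, every group was lower in knockout cells. The knockout sum differed from the wild type sum by -39.1% for box C/D snoRNP genes (625 ± 65.1 to 381 ± 13.2 CPM, SD, n = 3 each) and by -38.8% for large subunit assembly (1276 ± 99.5 to 781 ± 21.5 CPM). It was -33.7% for box H/ACA genes, -32.5% for genes of abundant nucleolar proteins, -31.0% for small subunit assembly and -23.6% for RNA polymerase I transcription. Ubtf alone held 272 of the 389 CPM of that last sum in wild type cells. These sums were not taken with library totals. On that scale all 4 box C/D and all 10 large subunit genes were called lower. So were 2 of 4 box H/ACA genes, 5 of 6 for abundant nucleolar proteins, 6 of 10 for small subunit assembly (1 higher) and 2 of 4 polymerase I genes. Over all genes tested, 13.9% were lower and 36.7% higher on that scale. No pair of roles was tested against another.

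Genes of the same pathway outside the set also mostly fell, with a smaller median. Of 142 further ribosome biogenesis genes in 5 lists, 141 were tested, and 107 fell, 4 rose and 30 were not called by edgeR with Benjamini-Hochberg adjustment, with a median log2 fold change of -0.37. With library totals 64 fell, 11 rose and 66 were not called, and the median was -0.17. Of all genes tested, 23.7% fell and 24.8% rose with TMM, and 13.9% fell and 36.7% rose with library totals. Of 52 genes listed as small subunit factors 41 fell and 0 rose (median -0.42), with Rcl1 (-0.95) and the nucleolar methyltransferase gene Rrp8 (-0.86) the lowest. With library totals 28 fell and 1 rose (median -0.22). Of 49 large subunit factors 41 fell and 1 rose (median -0.41), or 28 and 2 with library totals (median -0.21). The lowest were Noc3l, from 57.9 ± 6.74 to 28.6 ± 1.67 CPM (SD, n = 3 each), and Nmd3, the adaptor of large subunit export (-0.95).

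Of 14 further genes of the polymerase I machinery 11 fell and 0 rose (median -0.32), with Taf1d (-0.81), part of the selectivity factor at the promoter, and the polymerase subunit gene Cd3eap (-0.64) lowest. With library totals 3 of these 14 fell, 1 rose and 10 were not called (median -0.12). Among 11 snoRNP assembly genes 8 fell and 1 rose (median -0.36), or 3 and 1 with library totals, where 7 were not called (median -0.16). Naf1, which assembles H/ACA particles, fell by 0.91 and Znhit6 by 0.69, while Pih1d1, part of a chaperone complex, rose by 0.37. The exosome and trimming genes were split, with 6 of 15 lower and 2 higher (median -0.07). The catalytic subunit genes Dis3 and Exosc10 fell by 0.54 and 0.46, and Eri1 and Exosc9 rose by 0.30 and 0.25. With library totals this last list held 2 lower and 6 higher (median 0.12), where 13.9% of all genes were lower and 36.7% higher (median 0.21).

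**Figure D3:**
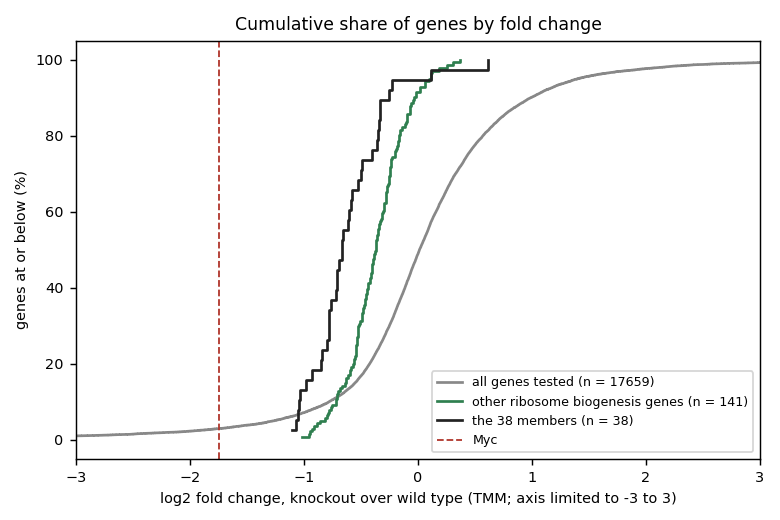
Cumulative share of genes (vertical axis, percent) at or below each log2 fold change, knockout over wild type with TMM, for the 38 members, the 141 other ribosome biogenesis genes tested and all 17659 genes tested. The medians of the members and of the other ribosome biogenesis genes are -0.67 and -0.37, these curves cross at the top, where the last step of the members, Utp20, is at 0.62, and Myc (dashed line) lies at -1.75.

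The set was chosen for its known response to MYC, to stand beside the fall of Myc (ENSMUSG00000022346). That choice was made with earlier results of these data known. Myc was at 69.0, 72.6 and 69.0 CPM in wild type and 20.3, 21.6 and 20.9 CPM in knockout libraries, a log2 fold change of -1.75 ± 0.07 (SE, edgeR adjusted p = 1.01e-11), or -1.55 with library totals. Wild type library 1, the lowest for most of the members, was not set apart in Myc. Max, which encodes the partner, fell from 108 ± 6.90 to 62.9 ± 4.01 CPM (-0.78), and Mxd1, which encodes an antagonist that competes for MAX, by 0.90. The paralogs Mycl (7.69, 9.94 and 8.94 against 21.1, 19.99 and 18.2 CPM) and Mycn (3.34, 2.66 and 2.48 against 4.38, 5.02 and 4.91 CPM) rose by 1.16 and 0.75, as did Mlxip by 0.29. Of the 13 genes of this network 5 fell, 3 rose and 5 were not called (median -0.04). With library totals 5 fell, 5 rose and 3 were not called (median 0.15), where the median of all genes was 0.21. With these 2 groups, which also differ in sex-linked transcripts, a link between Myc and the members and separate differences in each cannot be told apart.

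**Figure D4:**
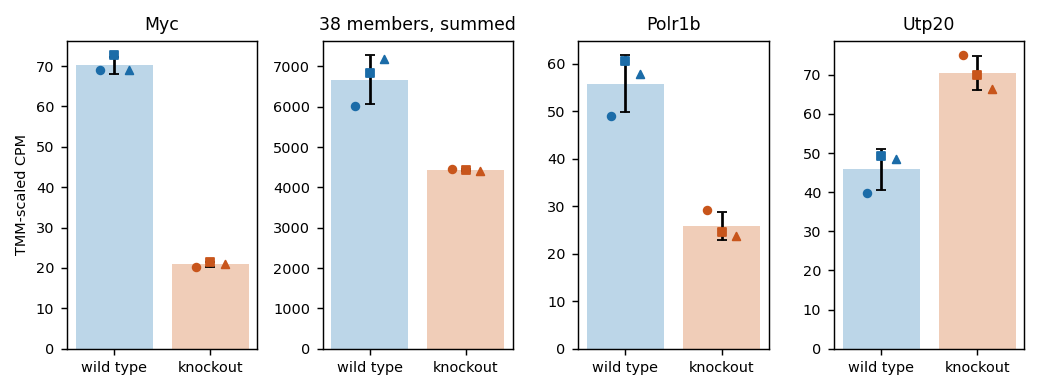
TMM-scaled CPM (vertical axes, each from 0) of Myc, the sum of the 38 members, Polr1b and Utp20. Bars are means of 3 libraries, error bars SDs and symbols single libraries, and the groups are apart in all 4 panels, with Utp20 higher and the others lower in knockout cells.

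Known MYC targets outside the nucleolus were less uniform. Of 39 such genes 22 fell, 10 rose and 7 were not called (median -0.22). With library totals 12 fell and 14 rose (median -0.02). Of all genes tested, 23.7% fell and 24.8% rose with TMM (median 0.01). With library totals 13.9% of all genes fell and 36.7% rose (median 0.21). Odc1, which makes the first polyamine, fell from 1251 ± 68.0 to 499 ± 26.7 CPM (SD, n = 3 each, log2 fold change -1.32). Shmt1, of the folate cycle, and the spermidine synthase gene Srm fell by 1.21 and 0.97. Mthfd1l, also of the folate cycle, rose by 1.03, the telomerase gene Tert by 0.98 and Mthfd1 by 0.63.

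Cytosolic ribosomal protein genes, matched by symbol with their paralogs, had 74 of 87 lower and 3 higher, with a median of -0.36, or 46 lower and 3 higher with a median of -0.16 with library totals. Genes of the cell cycle stood opposite to the members. Of 20 S phase genes 14 rose and 0 fell (median 0.47), and of 20 G2/M genes 19 rose and 0 fell (median 0.99). With library totals 16 S phase and 20 G2/M genes rose and 0 fell (medians 0.67 and 1.19). Over all genes tested, 24.8% rose and 23.7% fell with TMM, and 36.7% rose and 13.9% fell with library totals.

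Among 10 genes linked to nucleolar stress, in which free ribosomal proteins bind MDM2 and stabilise p53, 4 rose, 4 fell and 2 were not called. Library totals gave 6 higher and 3 lower, where 36.7% of all genes tested were higher and 13.9% lower. ARF, one of the products of Cdkn2a, binds MDM2 and is held in the nucleolus by nucleophosmin. Cdkn2a rose from 1.42, 2.13 and 1.60 CPM to 17.9, 16.7 and 20.7 CPM (log2 fold change 3.42 ± 0.15, SE, edgeR adjusted p = 3.87e-11). The counts are per gene, so whether the ARF transcript rose cannot be told. Bbc3, a p53 target that promotes death, rose by 1.27 and Trp53, the gene of p53, by 0.36. Rrp8, named above and also on this list, had the largest fall (log2 fold change -0.86). The ribosomal protein gene Rpl5 fell by 0.35, and Nop53, which binds the 5S ribonucleoprotein, fell from 404 ± 14.6 to 261 ± 10.4 CPM (SD, n = 3 each). Mdm2 (0.06) and Cdkn1a (0.14) were not called with TMM and were called higher with library totals (0.26 and 0.34). The median of all genes tested was 0.01 with TMM and 0.21 with library totals.

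Some reads near the members cannot be assigned with certainty. The strand setting of the counting is not given in the sources used here, and 16 members share exonic bases with a gene on the other strand in GENCODE M21. The share passed 5% of their exonic bases in Noc2l (20.9%, with Samd11), Bysl (9.37%, with Ccnd3) and Nop14 (5.27%, with Gm15522). Ncl, Gnl3, Nop56, Nop58 and Ppan hold snoRNA genes within their annotated exons.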

How the data were processed

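Per the labels' protocols, 6 keratinocyte RNA libraries were read in pairs of 150 bp. The authors deposited raw counts of reads per gene. FastQC, STAR, HTSeq and DESeq2 are named with mm39 and GRCm39, per the submitters' processing notes. Neither versions nor the annotation release and strand setting are given in the sources used here. Symbols were matched by identifier for 52083 of 55416 genes.

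Counts were filtered with filterByExpr (minimum count 10), scaled by TMM and fitted by robust quasi-likelihood in edgeR 4.0.16 (R 4.3.3) with genotype as factor. Calls were made at an adjusted p (Benjamini-Hochberg) under 0.05. The test was checked on simulated data. Standard errors were derived from the log2 fold change and its F statistic. At these depths 3 counts equal 0.0369 CPM or less, which covers counting error only. Exon lengths came from GENCODE M21, built on another assembly.

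The members and lists were chosen with earlier results of these data known. Besides the members and Myc, the genes named are the 2 (pathway lists) or 3 (other lists) largest called rises and falls per list with a mean of at least 2 CPM and groups that do not overlap. 1 gene was taken off the snoRNP assembly list after the values were seen, because its match by an older symbol was in doubt. Mdm2, Cdkn1a and the marker genes stand outside the rule. Alternatives were DESeq2 (1.42.0) size factors and test, library totals, upper-quartile factors, limma voom (limma 3.58.1), other low-count filters, no X and Y genes, thinned libraries and each library left out.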

Additional observations from a re-analysis of the deposited data

How the results depend on the processing

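Under 15 alternatives, 31 of the 38 members kept their direction and call in every one that tested them (Dkc1 was not tested without X and Y genes). Library totals made the difference for the others: the members' median became -0.47, the other ribosome biogenesis genes had 11 higher and 64 lower (median -0.17), all genes had 2453 lower, and the median of all genes became 0.21. That setting ended the call of 7 members, and Gar1 also lost its call without single libraries. None of the members, Myc or these medians changed direction. Leaving out each library gave 35 to 36 members lower, a median of -0.75 to -0.63, 37 to 38 members without overlap, 92 to 112 other ribosome biogenesis genes lower and a log2 fold change of Myc of -1.77 to -1.72. No paired analysis was possible because the genotypes share no replicate numbers. Depth did not limit the members, each with at least 910 counts in every library.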
